A study of Bos taurus with 12 samples.

Results

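Retinoid synthesis, binding and response in the bovine endometrium was described here through 9 genes, RDH10, RBP4, STRA6, ALDH1A1, ALDH1A2, CRABP2, RARRES1, RARA and RXRA, taken as every probe set that the chip annotation assigned to one of these symbols. This gave 11 of the 24016 probe sets on the array, for 8 of the 9 genes, because none was named for ALDH1A2. The genes were chosen by measured values of these arrays, the differences that earlier work on them had shown. RDH10 belongs to the list of the study for receptivity at day 7, and RARRES1 to its list for the change from day 3 to day 7 in the high receptivity group. From that second list the study had left out probe sets that changed in both receptivity groups. Those differences, and the day difference of RDH10 in HR, which uses the same HR7 pools, are given below as descriptions without a test. Tests of the LR day differences and of the interactions of RDH10 and RARRES1 share pools with the choice, so nothing is read from them. The other members were also chosen with earlier results of these data known. Their adjusted p-values thus describe these pools and are no independent test.

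Cells were brushed from the uterus of Simmental heifers at day 3 or at day 7 of an estrous cycle, 1 cycle ahead of the transfer of an in vitro produced embryo. Heifers that later carried a pregnancy formed the high receptivity group (HR) and those that did not the low receptivity group (LR), so the groups are HR3, LR3, HR7 and LR7. No drug treatment or genotype separated them, and an age was not used here. Each group had 3 RNA pools of several heifers, 1 pool to 1 Affymetrix Bovine Genome Array, so that the spread between heifers within a pool cannot be seen and p-values measure the spread between pools. Whether the same heifers contributed to day 3 and day 7 pools of one number is not given in the sources used here.

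Retinol travels in blood on the carrier protein RBP4 and enters cells through the receptor STRA6. Retinol dehydrogenases such as RDH10 oxidise it to retinal, and retinal dehydrogenases of the ALDH1A family make retinoic acid from that. CRABP2 hands retinoic acid to nuclear receptors, which bind DNA as pairs of a retinoic acid receptor such as RARA and a retinoid X receptor such as RXRA. In the uterus retinoic acid is known as a signal for epithelial and stromal cells, and RBP4 as a product of the endometrium in early pregnancy of cattle.

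Signals are log2 values, so a difference of 1 is a doubling. Array medians lay between 6.63 and 6.77, and each array had 286 to 403 probe sets at a value of 0. A probe set was tested in limma if its standard deviation (SD) over the 12 arrays was at least 0.2 and it lay above the array median in every pool of at least 1 group, which 7339 probe sets did. Of the retinoid probe sets 8 were tested. A transcript is said to rise, fall or change only at an adjusted p under 0.05 (Benjamini-Hochberg over the 7339). Each marker gene was taken on its probe set with the highest mean signal. Markers of uterine epithelium were high in all pools, at mean signals of 10.26 to 10.70 over 11 genes. On these probe sets, however, KRT8 and PAX8 lay below the median of every array. Stromal markers, 14 genes, had means of 9.10 to 9.44 (HR3), 8.24 to 9.08 (LR3), 7.92 to 8.99 (HR7) and 7.62 to 8.41 (LR7). The spiked-in dap control had a 5′ minus 3′ signal of -2.74 to -1.32 in HR3, -3.13 to -2.66 in LR3, -2.30 to -1.77 in HR7 and -1.88 to -1.47 in LR7, so that the LR days differed without overlap, and its part in the day differences of LR was not tested. In such bulk samples fewer cells of a type and less RNA per cell cannot be told apart.

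RDH10, the enzyme of the first oxidation step, had its highest signals in HR7 on both of its probe sets. On Bt.12765.1.S1_at the 3 HR7 pools were at 11.47, 11.10 and 11.54 and the LR7 pools at 10.10, 10.56 and 10.23. The day 3 pools were at 9.98, 10.20 and 10.20 in HR3 and at 9.73, 10.00 and 9.56 in LR3. All HR7 pools lay above all other pools, and HR3 and LR3 overlapped. On Bt.25009.1.S1_at the HR7 pools were at 11.20, 10.79 and 11.21 and the LR7 pools at 9.99, 10.22 and 9.94. There the day 3 pools were at 9.70, 9.76 and 9.99 in HR3 and at 9.50, 9.70 and 9.67 in LR3. The order of the groups was the same on both probe sets, whose signals differed within an array by -0.11 to 0.44 (mean 0.25, SD 0.14, n = 12).

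HR7 exceeded LR7 by 1.07 ± 0.17 (SE, 3 pools a group), or 2.10-fold, on the first RDH10 probe set and by 1.02 ± 0.15, or 2.02-fold, on the second. Over all probe sets 0.0681% were called between HR7 and LR7, 5 of 7339, all higher in HR7. The second RDH10 probe set was 1 of these, a fact that the choice of the gene had already used. With the pool number as a block, none of the retinoid probe sets and 3 of all probe sets were called. The retinoid count was also 0 without HR3 replicate 1 or 2, LR3 replicate 2, HR7 replicate 1 or 3 or any LR7 pool, and 2 without LR3 replicate 3 or HR7 replicate 2, while the differences stayed between 0.94 and 1.21. At day 3 the differences between HR and LR were 0.36 ± 0.17 (adjusted p = 0.691) and 0.19 ± 0.15 (adjusted p = 0.803).

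The comparison of the days in HR shares the HR7 pools with that of HR7 and LR7, so it is described only. HR7 exceeded HR3 by 1.24 ± 0.17 on Bt.12765.1.S1_at and by 1.25 ± 0.15 on Bt.25009.1.S1_at, without overlap. In LR the RDH10 difference was 0.53 ± 0.17 (limma, adjusted p = 0.0281) and 0.43 ± 0.15 (adjusted p = 0.0401). Both of these calls were close to the threshold, and the choice of RDH10 had used the LR7 pools. Bt.12765.1.S1_at lost its LR call without LR3 replicate 1, LR3 replicate 3 or LR7 replicate 2 (adjusted p = 0.0663, 0.0839 and 0.102). Bt.25009.1.S1_at lost it with the pool number as a block (adjusted p = 0.0566), and without HR3 replicate 2, any LR3 pool, LR7 replicate 1 or LR7 replicate 2 (adjusted p = 0.0554 to 0.127). With no filter, array weights and only the compared groups, both calls were lost as well, at 0.0731, 0.0751 and 0.0703 on the first and 0.0868, 0.0612 and 0.0808 on the second. The change in HR exceeded that in LR by 0.71 ± 0.25 and 0.82 ± 0.22, but neither difference passed the test of the interaction (adjusted p = 1 for both). The interaction shares the HR7 and LR7 pools with the choice of RDH10, so nothing is read from these tests.

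The mean signals of the squamous and of the neutrophil marker lists were also highest in HR7. The mean over 6 markers of basal and squamous epithelium, such as lines the cervix and vagina, was 6.65 to 7.19 in HR7, against 5.44 to 5.91 in LR7, 5.07 to 5.69 in HR3 and 5.04 to 5.78 in LR3. Of 4 such probe sets tested 3 were higher in HR7 than in LR7, where 0.0681% of all were called. The list was drawn up with earlier results of these data known, so nothing is read from this count. On the probe set with the highest mean signal per gene, KRT5 (mean 10.39 in HR7 and 7.93 in LR7) and KRT15 (10.70 and 7.62) carried the rise. COL17A1, DSC3, KRT14 and KRT4 lay on theirs below the array median on all arrays. The 4 tested probe sets covered 3 genes, so a gene besides KRT5 and KRT15 also had a tested probe set. All 4 were higher in HR7 than in HR3, where 20.7% of all rose, and nothing is read from this count either. The mean over neutrophil markers, 4 genes, was 8.77 to 9.41 in HR7 and 8.03 to 8.86 in LR7, and 6.06 to 6.54 at day 3. S100A8, S100A9 and S100A12 carried this rise. MPO lay below the array median on all arrays, with means of 4.28 (HR3), 3.07 (LR3), 3.54 (HR7) and 3.98 (LR7). Of the other lists, macrophage probe sets rose from day 3 to day 7 in 3 of 6 cases in each receptivity group. Of all probe sets 20.7% rose in HR and 22.7% in LR. The means of CSF1R and C1QA were lower at day 7, at 7.50 against 8.07 and 8.68 against 9.45 in HR. In LR they were 7.48 against 7.75 and 8.65 against 9.15. T and NK cell probe sets fell in 3 of 7 in each group, and both ciliated cell probe sets fell in HR, where 20.8% (HR) and 22.0% (LR) of all fell. The part of these cells in the RDH10 signal was not tested.

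**Figure D1:**
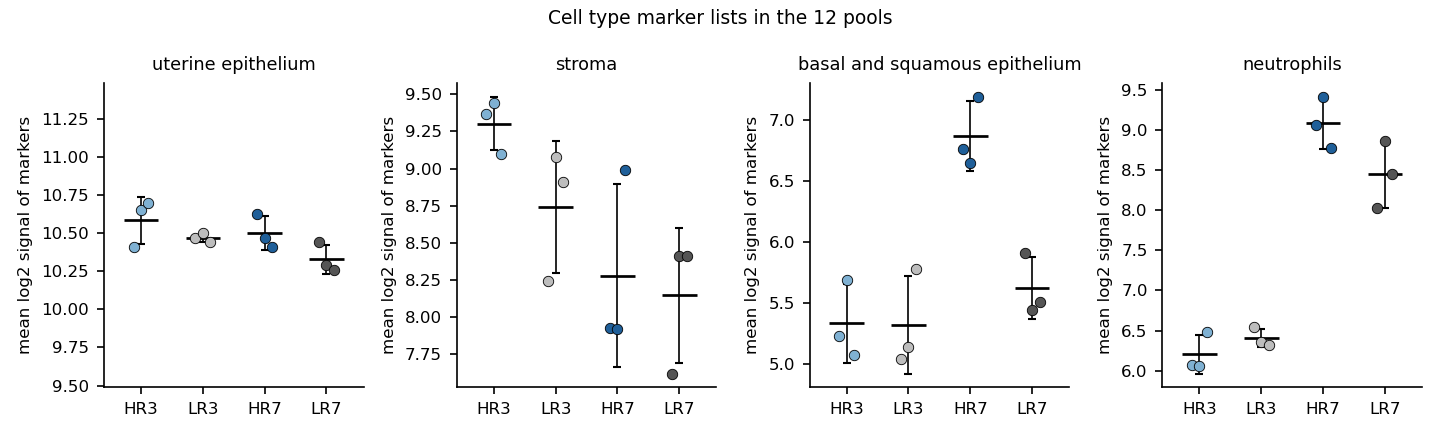
Mean log2 signal of 4 marker lists in each of the 12 pools (points), with the group mean (bar) and SD over 3 pools (error bar). Squamous markers stand apart in HR7 at 6.65 to 7.19, neutrophil markers are high in both day 7 groups, and epithelial markers stay between 10.26 and 10.70.

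ALDH1A1, which makes retinoic acid from retinal, rose with the day in both receptivity groups. Its signals were 10.12, 9.86 and 9.99 in HR3 and 9.38, 9.89 and 9.93 in LR3. At day 7 they were 11.14, 11.27 and 11.04 in HR and 10.72, 10.92 and 10.90 in LR. All day 7 pools lay above all day 3 pools. The rise was 1.16 ± 0.16 in HR (adjusted p = 3.80e-04) and 1.11 ± 0.16 in LR (adjusted p = 5.54e-04), and it passed under every setting and without any one pool. ALDH1A1 too was chosen with earlier results of these data known, so these calls are a description. The HR7 pools were also above all LR7 pools, by 0.30 ± 0.16 on average, but this did not pass (adjusted p = 0.997). Ranges of HR7 and LR7 did not overlap for 3 of the 8 retinoid probe sets tested, ALDH1A1 and both of RDH10, where this held for 8.94% of all probe sets tested. The choice of RDH10 had used this comparison, so nothing is read from the count.

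**Figure D2:**
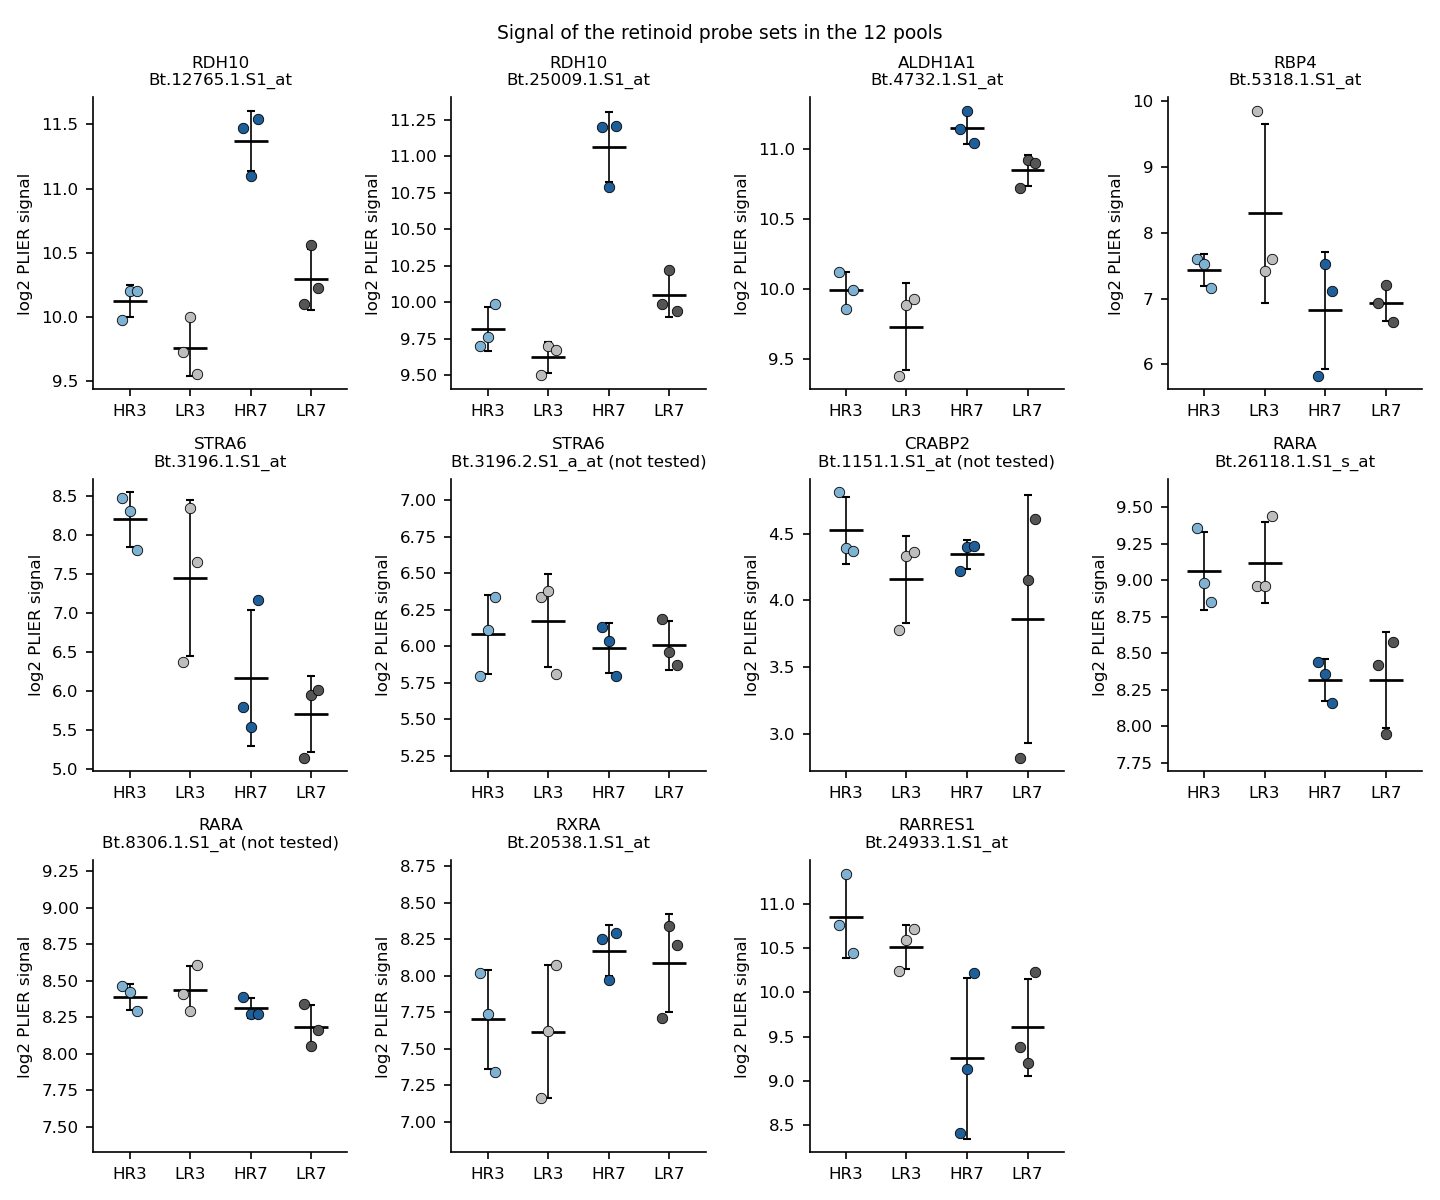
Log2 signal of the 11 retinoid probe sets in each of the 12 pools (points), with group mean (bar) and SD over 3 pools (error bar); each panel has its own axis, so levels are not to be compared between panels. RDH10 in HR7 lies above every other pool on both probe sets, ALDH1A1 is higher at day 7 in both groups, and STRA6 Bt.3196.1.S1_at, RARA Bt.26118.1.S1_s_at and RARRES1 are lower.

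STRA6, the receptor through which retinol enters the cell, was lower at day 7 on one of its probe sets. On Bt.3196.1.S1_at the pools were at 8.48, 8.31 and 7.81 in HR3 and at 6.37, 8.34 and 7.65 in LR3. At day 7 they were at 5.80, 5.54 and 7.17 in HR and at 5.15, 5.95 and 6.02 in LR. LR3 replicate 1 was the lowest day 3 pool and HR7 replicate 3 the highest day 7 pool. It fell in HR (difference -2.03 ± 0.49, limma, adjusted p = 0.0082) and in LR (difference -1.75 ± 0.49, adjusted p = 0.0157). Both calls are a description, since STRA6 was chosen with earlier results of these data known. The probe set met the filter only through HR3, where it was high, and LR3 replicate 1, HR7 replicates 1 and 2 and all LR7 pools lay below their array medians, so that the size of the fall is uncertain. With no filter the HR call remained. The LR call was lost with no filter on low values (adjusted p = 0.0634), without LR3 replicate 2 (0.0623) and without LR7 replicate 1 (0.0634). Stromal markers followed the same pools, being lowest among day 3 pools in LR3 replicate 1 (8.24) and highest among day 7 pools in HR7 replicate 3 (8.99), and 5 of 14 stromal probe sets fell in HR and 3 in LR, where 20.8% and 22.0% of all probe sets fell. Their part in the STRA6 signal was not tested. The other STRA6 probe set, Bt.3196.2.S1_a_at, stayed below the array median on all arrays at 5.80 to 6.38 and was not tested.

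Between receptivity groups STRA6 Bt.3196.1.S1_at did not pass the test. HR3 exceeded LR3 by 0.75 ± 0.49 (adjusted p = 0.758), and by 0.21 without LR3 replicate 1. HR7 exceeded LR7 by 0.46 ± 0.49 (adjusted p = 0.997), and without HR7 replicate 3 the sign turned (-0.04).

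RBP4, the carrier of retinol in blood, varied widely within groups. Its day 3 signals were 7.61, 7.53 and 7.16 for HR and 9.86, 7.42 and 7.61 for LR. Its day 7 signals were 5.82, 7.52 and 7.12 for HR and 6.93, 7.20 and 6.65 for LR. LR3 replicate 1 stood above all other pools and HR7 replicate 1 below them. No comparison passed. LR7 differed from LR3 by -1.37 ± 0.56 (adjusted p = 0.0636), with ranges that did not overlap, and the difference was -0.59 without LR3 replicate 1. It passed without LR3 replicate 2 (-1.81, adjusted p = 0.0373), LR3 replicate 3 (-1.71, adjusted p = 0.0436) or HR7 replicate 1 (adjusted p = 0.047). RBP4 met the filter only at day 3, where it was high, which favours a difference between days. HR7 replicate 1 (5.82) and LR7 replicate 3 (6.65) lay below their array medians of 6.72 and 6.71. The size of the RBP4 day differences is thus uncertain, and nothing is read from these passes. In HR the day difference was -0.61 ± 0.56 (adjusted p = 0.377), with -0.11 without HR7 replicate 1 and -0.96 without HR7 replicate 2. Against LR, HR differed by -0.86 ± 0.56 at day 3 (adjusted p = 0.752; -0.08 without LR3 replicate 1) and by -0.11 ± 0.56 at day 7 (adjusted p = 0.997), where the sign turned without HR7 replicate 1 (0.39) or LR7 replicate 2 (0.03).

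CRABP2, which carries retinoic acid to its receptors, lay below the array median on all 12 arrays and was not tested. Its signals ran from 2.82 in LR7 replicate 1 to 4.81 in HR3 replicate 1. At day 3 they were 4.81, 4.39 and 4.37 for HR and 3.78, 4.33 and 4.36 for LR. At day 7 they were 4.22, 4.40 and 4.41 for HR and 2.82, 4.15 and 4.61 for LR. The lowest HR3 pool (4.37) was barely above the highest LR3 pool (4.36), both below the array median, and the other groups overlapped. At day 3 ranges of HR and LR were apart for 10.7% of all probe sets tested, so nothing is read from this.

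The receptor RARA fell with the day in both groups on Bt.26118.1.S1_s_at. Signals were 9.36, 8.98 and 8.85 in HR3 and 8.96, 8.96 and 9.44 in LR3. They were 8.44, 8.36 and 8.16 in HR7 and 8.42, 7.95 and 8.58 in LR7. All day 7 pools lay below all day 3 pools, and the receptivity groups overlapped within each day. The difference was -0.74 ± 0.20 in HR (adjusted p = 0.0138; 0.0545 without HR3 replicate 1) and -0.80 ± 0.20 in LR (adjusted p = 0.00966). The other RARA probe set, Bt.8306.1.S1_at, ran only from 8.05 to 8.61 and missed the SD limit. With no filter it differed by -0.08 ± 0.12 in HR (limma, adjusted p = 0.716) and -0.25 ± 0.12 in LR (adjusted p = 0.191). The fall of RARA thus rests on Bt.26118.1.S1_s_at alone, and the probe sets disagreed. RARA too was chosen with earlier results of these data known, so its calls are a description. Probe sets with the suffix s_at can match more than one transcript.

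RXRA, the partner of RARA, was at 8.02, 7.74 and 7.34 in HR3 and at 7.16, 7.62 and 8.07 in LR3. It was at 8.25, 7.97 and 8.29 in HR7 and at 7.71, 8.34 and 8.21 in LR7. Day 3 and day 7 pools overlapped in both receptivity groups, and the day differences of 0.47 ± 0.25 in HR (adjusted p = 0.139) and 0.47 ± 0.25 in LR (adjusted p = 0.134) did not pass. The LR difference passed without LR3 replicate 3 (0.70, adjusted p = 0.0415), and the HR difference with array weights (0.46, adjusted p = 0.0369).

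RARRES1, named for its response to retinoic acid, was lower at day 7. Its signals were 10.76, 11.34 and 10.44 in HR3 and 10.24, 10.59 and 10.72 in LR3. At day 7 they were 8.41, 9.14 and 10.22 in HR and 9.39, 9.20 and 10.23 in LR. HR7 replicate 3 and LR7 replicate 3 were the highest day 7 pools, and HR7 replicate 3 also held the highest stromal markers of day 7. In HR, where the gene was chosen, the difference was -1.59 ± 0.41, and day 3 and day 7 pools did not overlap. In LR it was -0.91 ± 0.41 (adjusted p = 0.0825), again without overlap, and it passed without HR7 replicate 1, HR7 replicate 3 or LR7 replicate 3 (0.0364 to 0.0498). The change in HR differed from that in LR by -0.68 ± 0.57 (interaction, adjusted p = 1). The list that chose RARRES1 had left out probe sets that also changed in LR. The choice had thus used the LR difference too, and nothing is read from these tests.

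Over the 8 retinoid probe sets tested, 6 were called between HR7 and HR3, 3 higher and 3 lower, where 41.5% of all probe sets were called (20.7% higher and 20.8% lower). RARRES1 and both RDH10 probe sets are among the 6, and their choice had used the HR7 pools, so nothing is read from this count. Between LR7 and LR3 it was 5 of 8, 3 higher and 2 lower, where 44.7% of all were called (22.7% higher and 22.0% lower). Both RDH10 probe sets are among the 5, and their choice had used the LR7 pools, so nothing is read from this count either. Ranges of the days did not overlap for 6 of 8 in HR and 7 of 8 in LR, against 60.2% and 51.3% of all. These counts also hold RDH10 and RARRES1, and in LR RBP4, which met the filter only at day 3, so nothing is read from them. The members' median difference was -0.07 in HR and -0.19 in LR, against -0.063 and -0.097 over all probe sets tested. The LR count was 4 with the pool number as a block and 3 without LR3 replicate 1, LR7 replicate 1 or LR7 replicate 2. At day 3 none of the 8 were called between HR and LR, with 0 whose ranges were apart (10.7% of all), and none of all 7339 (0%), where 518 had an unadjusted p under 0.05 (253 to 882 without single pools, lowest without HR3 replicate 2 and highest without HR3 replicate 1, and 1239 with array weights). No probe set passed for the interaction (0%), where 286 had an unadjusted p under 0.05 (156 to 548 without the same pools, and 699 with array weights). The 2 day comparisons share no pools with each other.

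**Figure D3:**
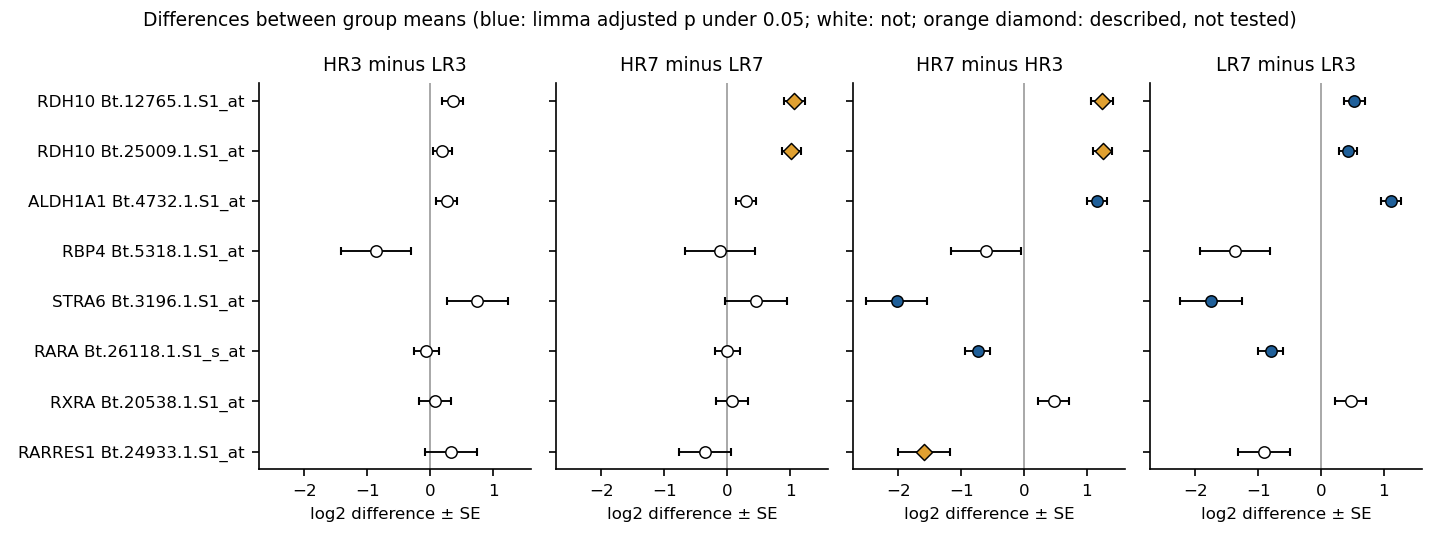
Log2 difference between group means (± SE, 3 pools a group) of the 8 tested retinoid probe sets in 4 comparisons. Blue marks an adjusted p under 0.05, white one above it, and orange diamonds the differences that were described without a test; RDH10 is higher in HR7 than in HR3 by 1.24 and 1.25, and STRA6 is lower (-2.03).

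Other genes of the pathway were taken from 6 lists of 62 names, of which 34 had a probe set and 17 were tested. In HR 14 of these 17 changed from day 3 to day 7, 8 up and 6 down, where 41.5% of all probe sets were called. In LR it was 12 of 17, 7 up and 5 down, where 44.7% of all were called. Some probe sets met the filter only through the day at which they were high, which favours a difference between days, so these counts are a description. None changed with receptivity at either day. Of the 26 pathway probe sets not tested, 20 lay below the array median on all arrays. Genes for uptake, transport and storage of retinol moved in both directions, with 1 of 4 up and 2 down in each receptivity group. LRAT, which stores retinol as esters, rose by 3.08 ± 0.58 in HR (adjusted p = 0.0023) and by 2.36 ± 0.58 in LR (adjusted p = 0.00838). Its day 3 signals were 3.97, 4.34 and 4.57 in HR and 5.01, 6.76 and 3.81 in LR, and its day 7 signals 7.09, 7.64 and 7.40 in HR and 7.56, 8.32 and 6.79 in LR. All day 7 pools were above all day 3 pools. LRAT met the filter only at day 7, and all day 3 pools but LR3 replicate 2 lay below their array medians, so that the size of the rise is uncertain, while both calls remained with no filter. TTR, the blood protein that binds RBP4, fell, with differences of -2.38 ± 0.67 in HR (adjusted p = 0.0158) and -1.80 ± 0.67 in LR (adjusted p = 0.0454). TTR met the filter only through LR3, and all day 7 pools lay below their array medians. With no filter neither call remained (adjusted p = 0.0653 in HR and 0.14 in LR). The TTR call in HR was also lost without HR3 replicate 3 (0.0615) or HR7 replicate 1 (0.0626), and that in LR without any LR3 pool, HR3 replicate 2, HR7 replicate 2, LR7 replicate 1 or LR7 replicate 2 (adjusted p = 0.0557 to 0.167), and with no SD limit (0.07), quantile normalization (0.0505), the ordinary model (0.105) or array weights (0.0559). SCARB1, which takes up lipoprotein lipids and carotenoids, fell, with differences of -1.05 ± 0.20 in HR (adjusted p = 0.00241) and -0.83 ± 0.20 in LR (adjusted p = 0.00741). CD36, a scavenger receptor for lipids, differed by -0.38 in HR and -0.70 in LR and did not pass, except in LR without LR7 replicate 3 (-1.02, adjusted p = 0.0327), and the LR difference was -0.16 without LR7 replicate 1.

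Among 7 tested genes for the oxidation and reduction of retinol and retinal and the cleavage of carotenoids, 4 rose and 2 fell in HR, and 4 rose and 1 fell in LR. Of all probe sets 41.5% were called in HR and 44.7% in LR, and these counts too are a description. The one that fell in LR, RDH5, differed by -0.41 and lost its call with the pool number as a block (adjusted p = 0.0525), with no filter (0.0674), with only the compared groups (0.0701) and without any LR3 pool, LR7 replicate 1 or LR7 replicate 2 (0.0619 to 0.0919). In HR the calls of RDH5 and RDH13, both lower at day 7, were lost without HR3 replicate 3, HR7 replicate 2 or HR7 replicate 3, and that of RDH5 also without HR3 replicate 2 (0.0519 to 0.0874). RDH13 met the filter only at day 3, where it was high, and some day 7 pools lay below their array medians. Its HR call remained with no filter. SDR16C5, a retinol dehydrogenase, rose by 1.60 ± 0.29 in HR (adjusted p = 0.00178) and by 1.51 ± 0.29 in LR (adjusted p = 0.00247). DHRS4, a reductase that accepts retinal, rose by 1.11 ± 0.21 (adjusted p = 0.00209) and 0.98 ± 0.21 (adjusted p = 0.00397). BCO2, which cleaves carotenoids, rose on Bt.28078.1.S1_at by 0.73 ± 0.17 (adjusted p = 0.00701) and 0.83 ± 0.17 (adjusted p = 0.00361). Its probe sets Bt.25504.1.A1_at and Bt.29479.1.S1_at lay below the array median on all arrays and were not tested. They differed by 0.52 and 0.02 in HR and by 0.40 and 0.37 in LR. DHRS3, which turns retinal back into retinol, rose in HR by 0.79 ± 0.23 (adjusted p = 0.0195) and differed by 0.60 ± 0.23 in LR (adjusted p = 0.0545). The HR call of DHRS3 was lost without HR3 replicate 3 (0.0751), HR7 replicate 1 (0.0628) or HR7 replicate 3 (0.0541) and with no filter (0.0649). The LR difference passed with the stricter filter (0.05), median centring (0.0383) and an intensity trend (0.0492), and without HR3 replicate 3, LR3 replicate 2 or LR7 replicate 1 (0.0338 to 0.0495).

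Of the proteins that bind retinoic acid, CRABP1 rose by 1.22 ± 0.17 in HR (adjusted p = 3.51e-04) and by 1.45 ± 0.17 in LR (adjusted p = 1.49e-04). It met the filter only at day 7, and all 6 day 3 pools lay below their array medians, while both calls remained with no filter. Its HR7 pools, at 6.95, 7.24 and 7.20, lay below the LR7 pools, at 7.85, 7.36 and 7.50. That difference of -0.44 ± 0.17 did not pass here (limma, unadjusted p = 0.021, adjusted p = 0.853). The gene is in the list that the study drew from the same arrays with another model. The paper states an unadjusted p under 0.05 as its limit for the day effect, so no disagreement is read from this. FABP5, a fatty acid binding protein that can also carry retinoic acid, rose by 0.97 ± 0.26 in HR (adjusted p = 0.013), a call lost without HR7 replicate 2 (0.0579). In LR FABP5 differed by 0.65 ± 0.26 (adjusted p = 0.0578), which passed with the pool number as a block (0.0408) and without HR7 replicate 1, HR7 replicate 2 or LR7 replicate 3 (0.0157 to 0.0443).

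Genes known to respond to retinoic acid did not move one way. TGM2, a transglutaminase, rose by 2.25 ± 0.42 in HR (adjusted p = 0.00228) and by 1.75 ± 0.42 in LR (adjusted p = 0.00775). At day 3 its signals were 8.39, 8.14 and 6.90 for HR and 6.66, 8.13 and 8.29 for LR, and at day 7 they were 9.97, 10.20 and 10.01 for HR and 9.69, 9.46 and 9.19 for LR. All HR7 pools lay above the LR7 pools, by 0.61 ± 0.42 on average, and this did not pass (adjusted p = 0.997). RARRES2, the precursor of chemerin, fell, with differences of -1.64 ± 0.28 in HR (adjusted p = 0.00145) and -1.28 ± 0.28 in LR (adjusted p = 0.00511). MEIS1, a homeobox factor, fell, with differences of -0.77 ± 0.14 (adjusted p = 0.00198) and -0.88 ± 0.14 (adjusted p = 0.001). GPRC5C differed by -0.37 and -0.22 and did not pass.

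**Figure D4:**
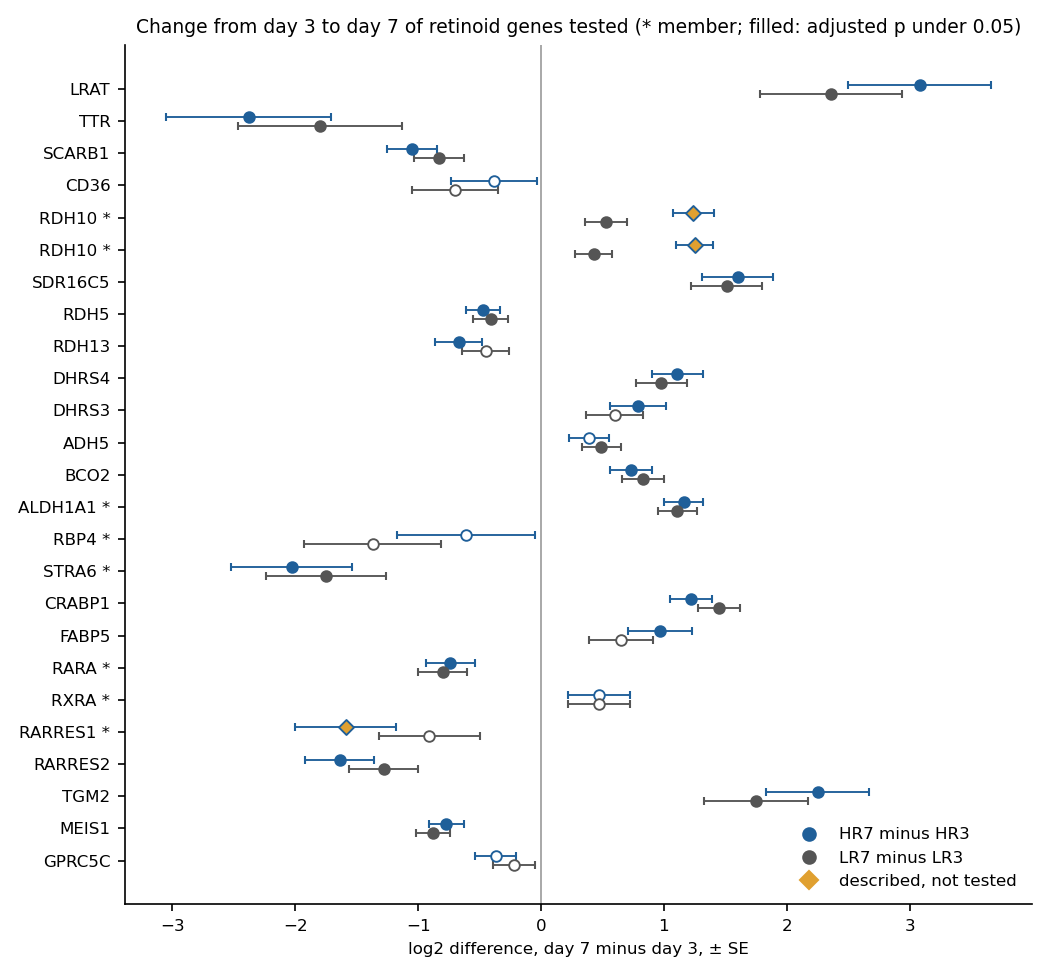
Change from day 3 to day 7 in HR (blue) and LR (grey) of the tested retinoid genes, as log2 difference ± SE, with 1 row a probe set; filled circles passed at an adjusted p under 0.05, and orange diamonds were described without a test. LRAT (3.08 in HR) and TGM2 (2.25) lie farthest up, and TTR (-2.38) and STRA6 (-2.03) farthest down.

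Likeness of patterns was measured as the mean absolute log2 difference between centred profiles over the 12 arrays. For RDH10 (Bt.12765.1.S1_at) the nearest of 4373 probe sets were ADAMTS1 (0.168), MED24 (0.222) and CAV1 (0.265), against a median of 0.58 over all. The group means of ADAMTS1 were 8.30 (HR3), 8.02 (LR3), 9.67 (HR7) and 8.74 (LR7). For STRA6 (Bt.3196.1.S1_at) the nearest of 4374 were PCOLCE (0.215), NID1 (0.267) and CDH11 (0.289), against a median of 1.06. Those of PCOLCE were 8.43 (HR3), 7.73 (LR3), 6.71 (HR7) and 6.22 (LR7).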

How the data were processed

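The authors scaled the scans globally with GCOS 1.1.1 and summarised probes by PLIER in Affymetrix Expression Console. The deposited values are the resulting log2 signals, 1 per probe set and array, from 0 to 14.07. Precision is limited by the 12 arrays. Present calls were not used here. In their place stood the filter described above, which left 7339 of 24016 probe sets after removal of 112 controls. Of these 24016, 13292 had 1 gene symbol, 86 several and 10638 none, and none was named from several.

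Differences were fitted in limma 3.58.1 (R 4.3.3), lmFit and eBayes, two-sided, with 1 mean per group over all 12 arrays. The study fitted each probe set in a SAS mixed model, and an ordinary linear model was tried as the nearest alternative. Tables and plots were made with Python 3.11.15, pandas 2.3.3, numpy 2.4.6 and matplotlib 3.10.9. The script was tested on simulated data. All probe sets of the 9 genes are given, and from each pathway list the up to 4 genes with the largest differences among those that passed, with CRABP1; CD36 and GPRC5C were named in addition, after their values were seen. The 3 probe sets most like RDH10 and STRA6 were taken by the distance given. The members and lists were chosen with earlier results of these data known.

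Pools carry the numbers 1 to 3 in each group. Same-numbered pools had residual correlations of 0.198, 0.211 and 0.463 between LR3 and LR7 and of 0.136, 0.147 and 0.445 between HR7 and LR7, but of -0.470 to 0.190 in the other pairs of groups. Fits with the pool number as a block are therefore given beside results of those comparisons where a call changed. Alternatives were no or a stricter filter (the 60th percentile), no SD limit, quantile normalization, median centring, 16 added to the linear signal, an intensity trend, an ordinary model, array weights, only the compared groups, the block and leaving out each pool.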

Additional observations from a re-analysis of the deposited data

How the results depend on the processing

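Under 11 other settings and with each of the 12 pools left out in turn, 1489 of 1609 values of the 71 differences kept their direction and their side of the threshold, 72 lost a call, 34 gained one and 14 turned sign. All 14 were receptivity differences that did not pass. Leaving out single pools gave -0.46 to 0.39 for RBP4 at day 7 (0.39 without HR7 replicate 1, 0.03 without LR7 replicate 2), -0.04 to 0.78 for STRA6 at day 7 (-0.04 without HR7 replicate 3) and -0.83 to 0.07 for RARRES1 at day 7. RARA ranged from -0.21 to 0.10 at day 3 and from -0.18 to 0.14 at day 7, where median centring gave -0.02 and array weights -0.00, and RXRA from -0.14 to 0.31 at day 3 and from -0.10 to 0.21 at day 7. The counts of retinoid probe sets called stayed at 0 for HR3 against LR3 and for the interaction in every fit. For HR7 against LR7 the retinoid count of 1 became 0 with no filter, the ordinary model, only the compared groups and the replicate block, and 2 with quantile normalization, median centring, the offset, the trend and array weights (0 to 2 without single pools). For LR7 against LR3 the count of 5 became 2 with no filter and 3 with array weights (3 to 7 without single pools), and for HR7 against HR3 the count of 6 became 7 with array weights and 5 with the stricter filter (5 to 6 without single pools).

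Over all probe sets, HR3 against LR3 gave 0, with 1 at no filter and 2 with array weights (0 to 5 without single pools). HR7 against LR7 gave 5, with 2 at no or a stricter filter, 8 with the offset, 3 with only the compared groups and 3 with the replicate block (2 to 9). HR7 against HR3 gave 3045 (1926 to 3222; 1926 without HR7 replicate 2), LR7 against LR3 3280, with 1957 for only the compared groups (2155 to 3261; 2155 without LR7 replicate 1), and the interaction 0, with 1 at no filter and 2 with the offset (0 to 2). The cause of these shifts was not tested. Among the 71 differences, the replicate block ended the calls of RDH10 Bt.25009.1.S1_at in LR and of RDH5 in LR (adjusted p = 0.0525), gave one to FABP5 in LR, and otherwise changed only the call of RDH10 between HR7 and LR7. Sets near or below the array median, CRABP2 among them, have the least reliable values.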
